A study of Bos indicus with 6 samples.

Results

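The isthmus of the bovine oviduct carried transcripts of nearly the whole set of genes examined here, which make, sulfate, carry, edit and break down glycosaminoglycans, the long acidic sugar chains of the cell surface and matrix. The genes were chosen by symbol alone: the heparan sulfate sulfotransferases and exostosins, the syndecans and glypicans, the endosulfatases and heparanase, the hyaluronan synthases and hyaluronidases with their receptor CD44, the chondroitin synthases, and all genes named CHST. They came to 51 of the 24616 rows of the deposited table and to 50 symbols, since HS6ST3 stood on 2 rows. The libraries came from 6 multiparous Nelore (Bos indicus) cows, 3 with a large preovulatory follicle and a large corpus luteum (LF/LCL) and 3 with a small follicle and a small corpus luteum (SF/SCL). All cows received a 1 g progesterone device with 2 mg of estradiol benzoate on day -10, prostaglandin at device removal and again 6 h later, and GnRH on day 0, and the LF/LCL cows also received prostaglandin on day -10. The device was removed 42 h before GnRH in LF/LCL and 30 h before GnRH in SF/SCL. Isthmus tissue of full thickness was taken on day 4 from the oviduct on the side of the corpus luteum, with 1 library per cow. The authors ranked the animals and sequenced the extremes of each group, so the 3 cows of a group are chosen animals and not a random draw. The age of the cows was not given in the sources used here.

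Heparan sulfate is built on core proteins, of which the syndecans span the membrane and the glypicans are held to it by a lipid anchor. The chain is extended by a pair of exostosins, its sugars are then stripped of acetyl groups and sulfated at several positions, and the resulting pattern sets which growth factors, chemokines and enzymes the chain can bind. Endosulfatases trim that pattern outside the cell and heparanase cuts the chain. Hyaluronan has no sulfate and no core protein, is spun out at the membrane by its synthases, is cut by hyaluronidases and is bound by CD44. In cattle the isthmus holds the sperm reservoir, glycosaminoglycans are present in oviduct fluid, and heparin-like chains are known to capacitate bull sperm, which is why the enzymes of these chains are of interest in this tissue. The comparison asks whether their transcripts differed between the groups on day 4, when the embryo is about to leave the oviduct.

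Values are normalized read counts, that is, reads per gene divided by the size factor of the library, and they are listed in the order of LF/LCL cows 617, 79 and 527 and of SF/SCL cows 856, 489215 and 97. Libraries held 23899117 to 34193164 counted reads. Log2 fold changes are SF/SCL over LF/LCL from limma on log2(value + 1), so that a negative value is a higher level in LF/LCL, and a pseudocount of 1 understates the change of genes at low levels. Values are not divided by transcript length, so levels are compared between cows and not between genes. SF/SCL cow 489215 stood apart from both other cows of its group: over all genes the residual SD of log2 values had a median of 0.43 with the 6 libraries and 0.18 without this cow. Results are therefore given with and without it, and the fit without it sets 3 cows against 2. Because whole tissue was sequenced, fewer cells of a type and less RNA per cell cannot be told apart.

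Of the 51 rows, 43 passed the filters of the test, which asked for a mean above 5 and a mean above the SD over the 6 libraries. With all 6 cows 0 of the 43 genes had an adjusted p under 0.05 in limma, beside 0 of 15387 genes tested (0.0%), and the smallest adjusted p from limma was 0.367 among these genes. At an unadjusted p under 0.05 in limma there were 7 of the 43 (16.3%), beside 8.66% of all genes. HS3ST6, HYAL1, HAS3, SULF1, SDC1 and SDC2 were the 6 with higher levels in LF/LCL, beside 4.48% of all genes in that direction. HS3ST5 was the 1 with higher levels in SF/SCL, beside 4.19% of all genes. The edgeR quasi-likelihood test on the recovered reads also called 0 of the 43 at an adjusted p under 0.05 (0.0% of all genes) and had 6 at an unadjusted p under 0.05, beside 8.49% of all genes, of which 5 were higher in LF/LCL (beside 4.43%) and 1 was higher in SF/SCL (beside 4.07%). SDC1 was the gene of the 7 that edgeR did not include. DESeq2 called 3 of the 43, beside 2.7% of all genes: HS3ST6 and HYAL1 higher in LF/LCL, beside 1.35% of all genes, and HS3ST5 higher in SF/SCL, beside 1.35%.

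**Figure D1:**
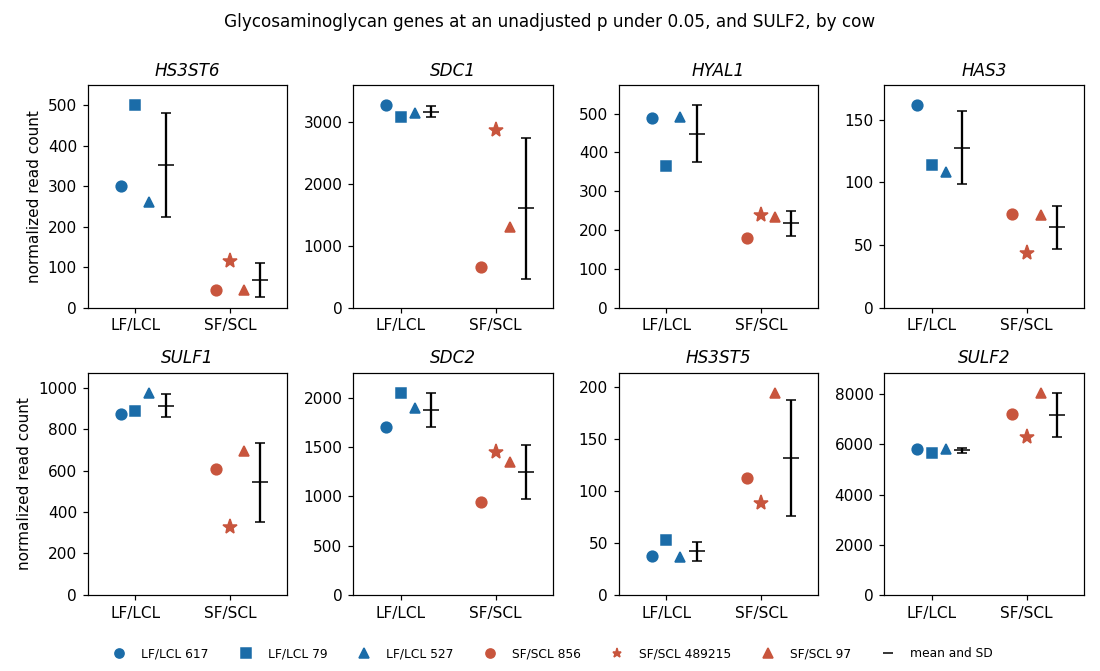
Normalized read counts (vertical axes, each starting at 0) of the 7 glycosaminoglycan genes at an unadjusted p under 0.05 in limma, and of SULF2, in each of the 3 LF/LCL (blue) and 3 SF/SCL (red) cows, with the group mean and SD as black bars. In every panel the groups do not overlap: 6 genes lie higher in LF/LCL, with HS3ST6 at 260.0 to 499 against 43.4 to 116, and HS3ST5 and SULF2 lie higher in SF/SCL, while SDC1 in cow 489215 (star) sits close to the LF/LCL cows.

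Most of these genes leaned toward LF/LCL under every scaling tried, though by different counts. In limma the log2 fold change was below 0 for 35 of the 43 (81.4%), beside 51.4% of all genes, and above 0 for 8, beside 48.6% of all genes. It was below 0 for 32 of the 43 in edgeR with TMM scaling and 30 of the 43 in DESeq2. EXTL3, CHST3 and HS6ST1 were the genes whose sign turned in edgeR, and CHST12 and HYAL2 turned as well in DESeq2. The median log2 fold change was -0.43 over the 43 genes and -0.02 over all genes tested. The values of the groups did not overlap for 9 genes higher in LF/LCL (20.9%, beside 8.6% of all genes) and for 2 genes higher in SF/SCL (4.65%, beside 9.51% of all genes). CHST15, EXTL1 and SDC3 joined the 6 genes named above in the first set, and HS3ST5 and SULF2 made up the second. With 3 cows against 3, an exact permutation test of a single gene cannot give a p below 0.1.

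**Figure D2:**
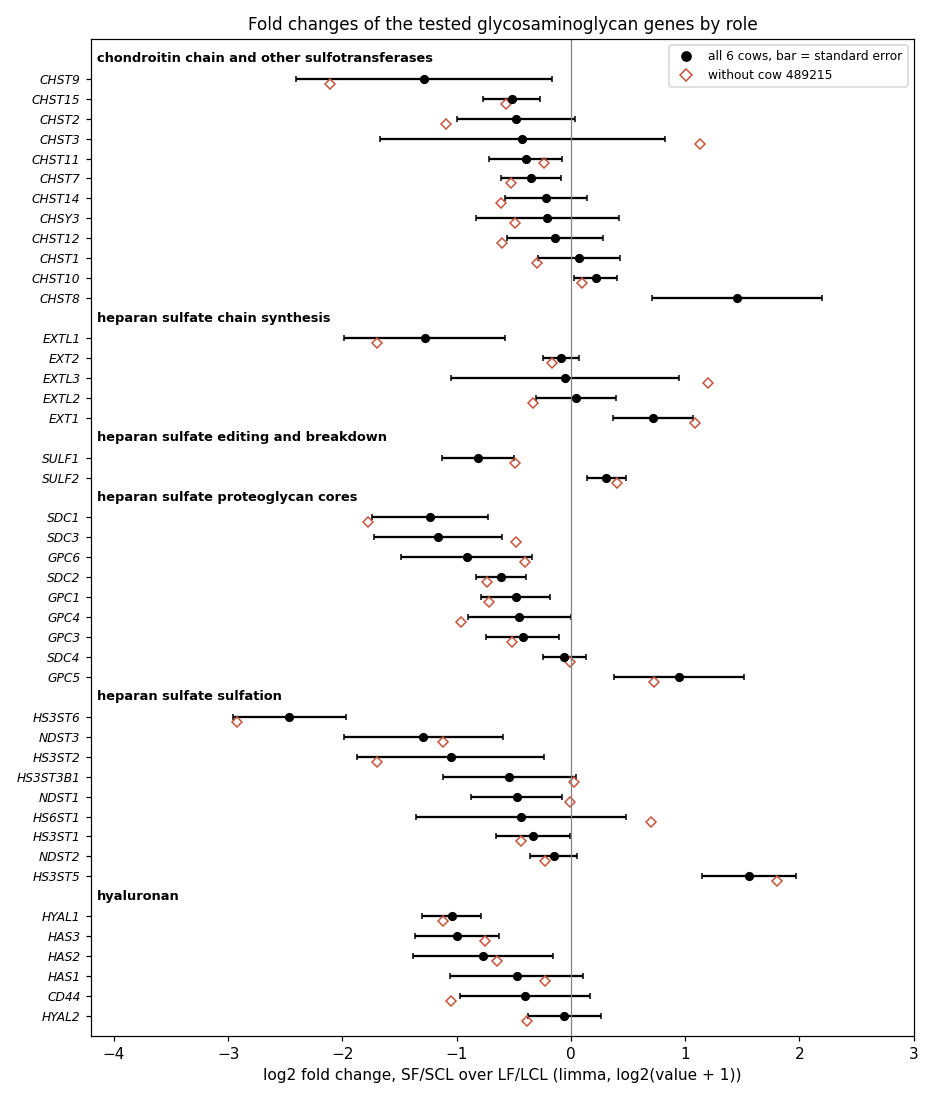
Log2 fold change of SF/SCL over LF/LCL for the 43 genes that passed the filters, grouped by role, with all 6 cows (black points, bars are the standard error from limma) and without cow 489215 (open red diamonds). Of the black points, 35 of the 43 lie left of 0, that is, higher in LF/LCL (30 of the 43 in DESeq2), HS3ST6 lies farthest left at -2.46 and HS3ST5 farthest right at 1.56, and EXTL3, CHST3, HS6ST1 and HS3ST3B1 cross from below 0 to above 0 without cow 489215.

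Chain synthesis held 5 genes, all of them tested, and 0 reached an unadjusted p under 0.05. EXT1 and EXT2 form the copolymerase that extends the heparan sulfate chain. EXT1 was at 2174, 2068 and 2141 in LF/LCL and at 3617, 2110.2 and 5645 in SF/SCL, so that cows 856 and 97 were above all LF/LCL cows while cow 489215 lay among them. Its log2 fold change was 0.72 (SE 0.35, limma adjusted p = 0.647) with all cows and 1.09 (SE 0.18, limma adjusted p = 0.0123) without cow 489215, but 0.38 without cow 97. EXT2, its partner, was at 3013, 3032 and 2881 and at 2554, 3119 and 2739.8, with a log2 fold change of -0.09 (SE 0.16). The levels of the partners thus lay apart in cows 856 and 97, where EXT1 was above and EXT2 below every LF/LCL cow.

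EXTL3, which adds the sugar that starts a heparan sulfate chain, was at 965, 1040.0 and 995 in LF/LCL and at 2485, 169 and 2126 in SF/SCL. The LF/LCL cows were close together, cows 856 and 97 were both above them, and cow 489215 was far below. The log2 fold change was -0.05 with all cows (SE 1.00), with the sign turned in edgeR and DESeq2, and 1.20 (SE 0.11, limma adjusted p = 0.00251) without cow 489215, against -0.73 without cow 856. EXTL2, a transferase that acts on the linker of the chain, ran the other way, at 539, 613 and 616 and at 489.9, 1019.8 and 444. EXTL1, a further exostosin-like enzyme, was at 44, 42.2 and 63.2 and at 6.08, 35.9 and 32.5, which kept the groups apart although the fold change of -1.28 had an SE of 0.71.

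Sulfation held 12 rows, of which 9 were tested, and its 3-O-sulfotransferases gave the largest fold changes of the 43 tested genes in both directions. These enzymes add the rarest sulfate of the chain, the one that antithrombin and some viral proteins recognise. HS3ST6 (ENSBTAG00000019249) was at 299, 499 and 260.0 in LF/LCL and at 44.1, 116 and 43.4 in SF/SCL, and the lowest LF/LCL cow was above the highest SF/SCL cow. The group means were 353 ± 128 and 67.7 ± 41.6 (SD, n = 3 each), 5.21 times higher in LF/LCL. The log2 fold change was -2.46 (SE 0.49) with a limma adjusted p of 0.367, and in the 5 of 6 fits omitting a cow in which the gene was tested it lay from -2.93 to -2.18. Without cow 617 its SD exceeded its mean, so that it was not tested. Cow 489215 was the highest of the 3 SF/SCL cows, and without it the adjusted p from limma was 0.00359.

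HS3ST5 had the opposite pattern. The gene (ENSBTAG00000000188) was at 37.7, 52.6 and 36 in LF/LCL and at 112, 87.9 and 194 in SF/SCL, with no overlap. The group means were 42.1 ± 9.11 and 131 ± 55.6 (SD, n = 3 each), 3.12 times higher in SF/SCL. The log2 fold change was 1.56 (SE 0.41) with a limma adjusted p of 0.405, and it ran from 1.24 to 1.81 over the fits that omitted a cow. Without cow 489215 the adjusted p from limma was 0.0202, and with all cows DESeq2 gave an adjusted p of 0.0135.

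Among the other 3-O-sulfotransferases no such separation was seen. HS3ST1 was at 149, 249 and 255 and at 147, 196 and 164, and HS3ST2 was low throughout, at 6.28, 19.7 and 7.91 and at 4.56, 12 and 1.08. HS3ST3B1 was at 19.9, 16.9 and 21.1 and at 19.7, 5.33 and 19.5, and its log2 fold change of -0.54 (SE 0.58) turned to 0.03 without cow 489215, the only cow in which it was low. The family therefore held 1 gene in which all LF/LCL cows were higher, 1 in which all SF/SCL cows were higher, and 3 tested genes in which the groups overlapped.

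The NDST enzymes swap the acetyl group for a sulfate, the step that later sulfation follows. NDST1 was at 1393, 1297 and 1470.3 in LF/LCL and at 1466, 523 and 1289 in SF/SCL, and only cow 489215 lay outside the range of the others. Its log2 fold change was -0.47 (SE 0.40) with all cows and -0.01 (SE 0.11) without that cow. NDST2 was at 1032, 1392 and 1321 and at 1171, 1236 and 956, with overlapping groups. NDST3 stayed at 6.28, 14.1 and 12.3 and at 1.52, 2.66 and 9.75, and NDST4 did not pass the filters, with a range from 1.33 to 6.84 over the 6 cows. HS6ST1, which sulfates the chain at the 6-O position, was at 792, 854 and 603 and at 1031, 113 and 1408, so that cows 856 and 97 were above the LF/LCL range and cow 489215 far below it. HS6ST3 was near the limit of detection on both of its rows, from 0 to 7.6 on one and from 0 to 3.51 on the other, and was not tested. Where such a row is at 0, a count of 0 leaves room for up to 3 reads in that library, for counting error only.

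The core proteins held 10 genes, 9 of them tested, of which 8 had a log2 fold change below 0 in limma, edgeR and DESeq2 alike. SDC1, the syndecan typical of epithelia, was at 3274, 3096 and 3153 in LF/LCL and at 656, 2873 and 1303 in SF/SCL. The LF/LCL cows lay within a narrow band of 3174 ± 91 (SD, n = 3), and the SF/SCL cows were all below it but spread widely, at 1610.4 ± 1140.4 (SD, n = 3). SDC1 had a log2 fold change of -1.23 (SE 0.50, limma adjusted p = 0.568) with all cows and -1.78 (SE 0.26, limma adjusted p = 0.00863) without cow 489215, in which SDC1 was nearest to the LF/LCL level, but -0.71 without cow 856, in which it was lowest.

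SDC2, the syndecan of mesenchymal cells, was at 1703, 2046 and 1894 and at 941, 1454 and 1350.4, and the groups did not overlap. Its log2 fold change was -0.61 (SE 0.22, limma adjusted p = 0.504), and -0.73 (SE 0.17, limma adjusted p = 0.0321) without cow 489215 and -0.42 without cow 856. SDC3 was also higher in all LF/LCL cows, at 1333, 1215 and 1514 against 999.6, 236 and 929, but cow 489215 was so low that the fold change moved from -1.16 (SE 0.56) to -0.48 (SE 0.12, limma adjusted p = 0.0417) without it, against -1.52 without cow 856. SDC4, which sits at focal adhesions, was at 1152, 1037 and 1116 and at 959, 989 and 1249.6, with a log2 fold change of -0.06 (SE 0.19). SDC1 to SDC3 were thus higher in every LF/LCL cow than in any SF/SCL cow, and the groups overlapped for SDC4.

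None of the 5 tested glypicans kept the groups apart. GPC1 was at 4182, 2931 and 2405 in LF/LCL and at 1733, 3070.1 and 2031 in SF/SCL, with a log2 fold change of -0.48 (SE 0.30, limma adjusted p = 0.752). GPC4 was at 838, 666 and 739.6 and at 338, 1110.4 and 429, so that cows 856 and 97 were below the LF/LCL range and cow 489215 above it, and its fold change went from -0.45 (SE 0.45) to -0.97 (SE 0.16, limma adjusted p = 0.013) without that cow and to -0.11 without cow 856. GPC3, known as a brake on growth signalling, was at 724, 361 and 503 and at 408, 433 and 309. GPC6 was at 30.4, 43.2 and 62.4 and at 29.6, 10.7 and 35.8. GPC5 was the only core protein gene with a fold change above 0, at 0.95 (SE 0.57), from low values of 13.6, 3.75 and 7.91 and 12.2, 21.3 and 14.1. GPC2 did not pass the filters, at 0.76 to 7.51, and its locus overlaps STAG3 in the RefSeq annotation of another assembly.

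Editing and breakdown held SULF1, SULF2 and HPSE. SULF1 and SULF2 are extracellular enzymes that take 6-O-sulfates off finished chains, and they pointed in opposite directions. SULF1 was at 875, 887 and 976 in LF/LCL and at 608, 328 and 693 in SF/SCL, a log2 fold change of -0.82 (SE 0.32, limma adjusted p = 0.535). SULF2 was at 5825, 5659.9 and 5826 and at 7211, 6296 and 8048, a log2 fold change of 0.31 (SE 0.17, limma adjusted p = 0.694). In neither gene did the groups overlap. The LF/LCL cows differed by little in SULF2, at 5770.2 ± 95.5 (SD, n = 3), and all 3 SF/SCL cows were above them, at 7185 ± 876 (SD, n = 3). Without cow 489215 the fold changes were -0.49 for SULF1 (limma adjusted p = 0.0366) and 0.40 for SULF2 (limma adjusted p = 0.0265), and without cow 97 they were -1.03 and 0.22.

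HPSE (ENSBTAG00000005745), heparanase, which cuts heparan sulfate chains in the matrix, was not tested with all cows because its SD exceeded its mean. It was at 48.1, 71.3 and 56.2 in LF/LCL and at 290.2, 30.6 and 376 in SF/SCL. Cows 856 and 97 were above every LF/LCL cow and cow 489215 was below every LF/LCL cow. Without cow 489215 the gene passed the filters, with a log2 fold change of 2.49 (SE 0.27, limma adjusted p = 0.00364). The direction of HPSE in the SF/SCL group therefore rested on 2 cows, with the remaining cow on the other side. The study reported HPSE as higher in LF/LCL by qPCR of more cows, over ampulla and isthmus together. Its qPCR of the isthmus alone, in the sequenced cows and in more cows, pointed to LF/LCL without significance. So did its own fold change for the isthmus libraries. This is opposite to cows 856 and 97 here, and to the group means of 58.6 in LF/LCL and 232 in SF/SCL.

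Hyaluronan held 7 genes, of which 6 were tested. All 6 had a log2 fold change below 0 in limma and edgeR, and 5 of the 6 in DESeq2, where HYAL2 was at 0.02. HYAL1 (ENSBTAG00000000483), a lysosomal hyaluronidase, was at 489.8, 364 and 491 in LF/LCL and at 179, 238 and 234 in SF/SCL, with no overlap. The group means were 448 ± 72.9 and 217 ± 33.4 (SD, n = 3 each), 2.07 times higher in LF/LCL. HYAL1 had a log2 fold change of -1.04 (SE 0.26) with a limma adjusted p of 0.381, and it ran from -1.18 to -0.91 over the fits that omitted a cow. Without cow 489215 the adjusted p from limma was 0.0178. The locus overlaps NAA80 and HYAL3 in the RefSeq annotation of another assembly, and since the sources do not say that counting used the strand, reads of these genes may not be separable.

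HYAL2, the hyaluronidase of the cell surface and the neighbour of HYAL1, was at 2151, 2263 and 1794 and at 1352, 3101 and 1841. Cow 489215 had the highest value and cow 856 the lowest, and the log2 fold change was -0.06 (SE 0.32). HYAL4 had 0 reads in cows 617, 79 and 489215 and a highest value of 6.15, and was not tested.

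Of the synthases, HAS3 was at 161, 114 and 108 in LF/LCL and at 74.4, 43.9 and 73.7 in SF/SCL, with no overlap. Its log2 fold change was -1.0 (SE 0.37, limma adjusted p = 0.507), and -0.75 without cow 489215, where the limma adjusted p was 0.108. The locus overlaps TANGO6 in the other assembly. HAS2, the synthase that makes very long chains, was at 31.4, 145 and 87.8 and at 36.5, 35.9 and 59.6, with the lowest LF/LCL cow below every SF/SCL cow. HAS1 was low in all cows, at 5.23, 8.45 and 14.9 and at 9.88, 3.99 and 5.42.

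CD44, the main receptor for hyaluronan, was at 2548, 2187 and 2941 in LF/LCL and at 919, 4758 and 1627 in SF/SCL. Cows 856 and 97 were below the LF/LCL cows and cow 489215 was above them, and the group means were 2558 ± 377 and 2435 ± 2043 (SD, n = 3 each). CD44 had a log2 fold change of -0.40 (SE 0.57) with all cows, -1.05 (SE 0.25, limma adjusted p = 0.0334) without cow 489215 and 0.13 without cow 856. The sign of the group difference for CD44 thus depended on which SF/SCL cow was included.

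The chondroitin synthases and CHST genes held 14 genes, of which 12 were tested, and 0 reached an unadjusted p under 0.05. The family name covers enzymes of several glycans: CHST3, CHST7, CHST11, CHST12, CHST13 and CHST15 act on chondroitin, CHST14 on dermatan, and CHST1, CHST2, CHST4, CHST8, CHST9 and CHST10 on keratan or on glycoprotein sugars. CHST2 was at 1174, 1518 and 1634 in LF/LCL and at 744, 2380.5 and 605 in SF/SCL, with cow 489215 highest of all and both other SF/SCL cows below the LF/LCL range. Its log2 fold change went from -0.48 (SE 0.52) to -1.09 (SE 0.17, limma adjusted p = 0.0107) without cow 489215, but to -0.10 without cow 97. CHST3 showed the reverse, at 377, 575 and 448 and at 1101, 38.6 and 924, and its fold change went from -0.43 (SE 1.25), with the sign turned in edgeR and DESeq2, to 1.13 (SE 0.20, limma adjusted p = 0.0143) without cow 489215 and to -1.27 without cow 856. Cow 489215 held 0.0564 times the mean of the other cows for CHST3.

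CHST15, which adds a further sulfate to chondroitin 4-sulfate, was the only gene of this role whose groups did not overlap, at 255, 294 and 228 and at 173, 192 and 174, with a log2 fold change of -0.52 (SE 0.25, limma adjusted p = 0.639). CHST12 and CHST14 followed the order of CHST2, with CHST12 at 387, 360.4 and 373 and at 220.3, 646 and 274, and CHST14 at 863, 908 and 983 and at 597, 1379 and 598. Without cow 489215 both passed the threshold, CHST12 at -0.60 (limma adjusted p = 0.0494) and CHST14 at -0.62 (limma adjusted p = 0.0157), whereas without cow 856 they were at 0.17 and -0.01. CHST11 was at 95.2, 102 and 112 and at 77.5, 62.6 and 97.5, with only cow 97 inside the LF/LCL range.

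CHST7 was at 299, 283 and 288 in LF/LCL and at 213, 290.2 and 191 in SF/SCL, and its locus overlaps SLC9A7 in the other assembly. CHST1 was at 985, 1089.7 and 757 and at 823, 1639 and 699, and CHST10 was at 1027, 1133 and 1225 and at 1246, 1534 and 1169. Neither CHST1 nor CHST10 separated the groups, and cow 489215 was the highest in both. CHST8, which acts on the sugars of glycoprotein hormones, had the second largest fold change above 0, 1.46 (SE 0.74, limma adjusted p = 0.664), from 39.8, 42.2 and 13.2 and 31.1, 99.9 and 158, with cow 856 inside the LF/LCL range. CHST9 varied within both groups, at 13.6, 57.3 and 94.9 and at 22.8, 54.6 and 3.25, as did CHSY3, a chondroitin synthase, at 14.7, 11.3 and 26.4 and at 6.08, 21.3 and 20.6. CHST4 was not tested because its SD exceeded its mean, and it ran from 4.56 in cow 856 to 554 in cow 489215, with 180.0, 94.8 and 88.7 in LF/LCL. CHST13 did not pass the filters, at 1.05 to 9.12.

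Cows 856 and 97 were both below every LF/LCL cow for 19 of the 45 genes left by the filters once cow 489215 was dropped (42.2%, beside 24.9% of all genes), and both above every LF/LCL cow for 8 (17.8%, beside 27.1% of all genes). In the limma fit of these 5 cows, 17 of the 45 genes had an adjusted p under 0.05 (37.8%), beside 18.2% of all genes. Of these, 11 were higher in LF/LCL (24.4%, beside 7.92% of all genes): HS3ST6, HYAL1, SDC1, SDC2, SDC3, SULF1, GPC4, CD44, CHST2, CHST12 and CHST14. The 6 that were higher in SF/SCL (13.3%, beside 10.3% of all genes) were EXT1, EXTL3, HS3ST5, SULF2, HPSE and CHST3. The edgeR test without cow 489215, added after the data had been seen, called 16 of these 17, all but CHST12, beside 18.1% of all genes. By role, and giving first the calls toward LF/LCL, there were 0 and 2 of the 5 chain synthesis genes, 1 and 1 of the 9 tested sulfation genes, and 4 and 0 of the 9 tested core protein genes. There were 1 and 2 of the 3 editing and breakdown genes, 2 and 0 of the 6 tested hyaluronan genes, and 3 and 1 of the 13 tested chondroitin synthase and CHST genes. These calls describe 3 LF/LCL cows against 2 SF/SCL cows, and the cow left out was chosen because its values stood apart from those of cows 856 and 97. In the secretory marker OVGP1 and the mesothelial markers MSLN and WT1, cows 856 and 97 in turn stood far above every other cow, cow 489215 included. In the same lists of markers, MSX1, LRRN4 and BNC1 were lower in cows 856 and 97 than in every LF/LCL cow.

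**Figure D3:**
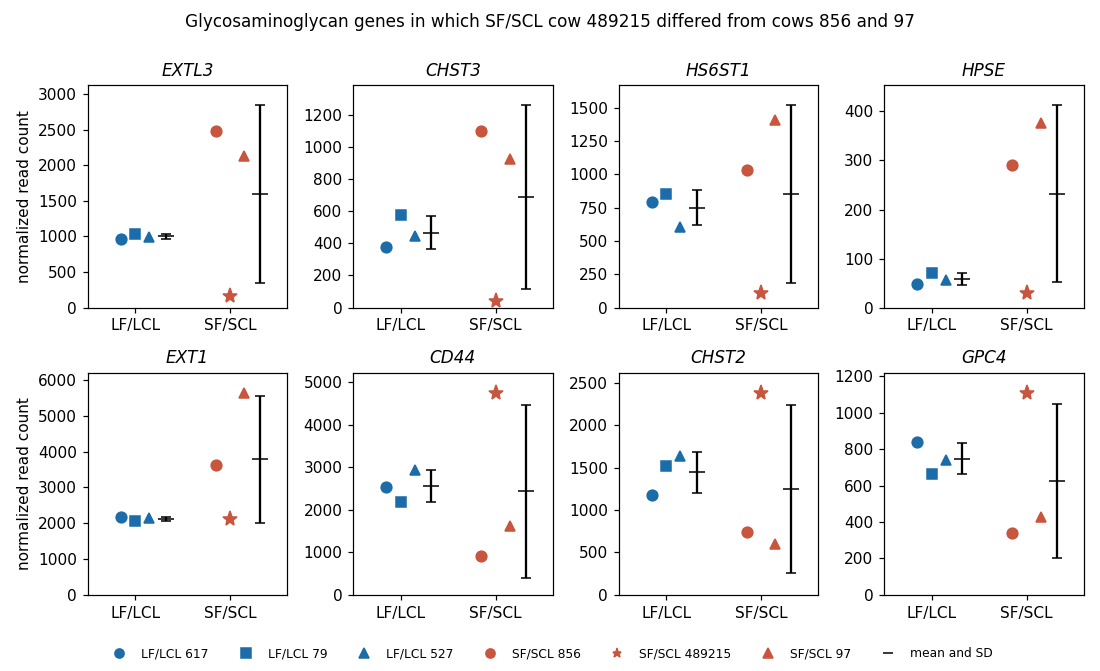
Normalized read counts (vertical axes, each starting at 0) of 8 glycosaminoglycan genes in each LF/LCL (blue) and SF/SCL (red) cow, with group mean and SD as black bars. Cow 489215 (star) lies below the LF/LCL cows for EXTL3, CHST3, HS6ST1 and HPSE, among them for EXT1 and above them for CD44, CHST2 and GPC4, each time on the other side of the LF/LCL cows from cows 856 and 97 except in EXT1.

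Where cow 489215 stood depended on the gene. It was the lowest of the 6 cows for 11 of the 43 genes and the highest for 11 of the 43 (25.6% each), beside 35.7% and 36.7% of all genes. Among the genes with a mean above 5, those in which it lay furthest below the mean of the other cows, in proportion, were CHST3 at 0.0564 times, EXTL3 at 0.111 times, HS6ST1 at 0.121 times, HPSE at 0.182 times and SDC3 at 0.197 times. Those in which it stood furthest above were CHST4 at 5.17 times, CD44 at 2.33 times and CHST2 at 2.1 times. The median coefficient of variation of the tested genes was 15.3% in LF/LCL and 47.7% in SF/SCL, beside 12% and 36.6% for all genes, and it was larger in SF/SCL for 35 of the 43 (81.4%), beside 82.4% of all genes. The tightest in LF/LCL were SULF2 at 1.66%, EXT1 at 2.55% and EXT2 at 2.76%.

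Markers of muscle, epithelium and stroma were present in every library, as the full wall of the isthmus would hold, and some of them moved with these orders. The summed smooth muscle markers (8 genes) were 784979 to 904542 in LF/LCL, 356885 in cow 856, 424740 in cow 97 and 1265706 in cow 489215. ACTA2, TAGLN, DES, CNN1 and SMTN, 5 of the 8, followed the order of the sum, whereas in cow 489215 MYH11 and MYLK lay below every LF/LCL cow and LMOD1 lay among them. The same order, cow 489215 above all LF/LCL cows and cows 856 and 97 below all of them, was found in 7 of the 45 genes with a mean above 5 (15.6%, beside 12.6% of all such genes), namely CD44, CHST2, CHST12, CHST14, EXT2, EXTL2 and GPC4. The summed ciliated cell markers (12 genes, of which PIFO was at 0 in every library) were 34933 to 42830 in LF/LCL, 60530 in cow 856, 66960 in cow 97 and 31372 in cow 489215. Of the 12 genes, 6 followed the order of the sum (FOXJ1, DNAI2, DNAH5, DNAH9, CCDC40 and TEKT1), while DNAI1 and CCDC39 were above every LF/LCL cow in cow 489215, RSPH1, RSPH4A and CAPS were among the LF/LCL cows there, and PIFO gave no order. That order was found in 4 of the 45 genes (8.89%, beside 14.2% of all such genes), namely CHST3, EXTL3, HPSE and HS6ST1. Both orders were chosen after the values had been seen, and the part of muscle or ciliated cells in these genes was not tested.

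The summed fibroblast markers (8 genes) were 298469 to 373142 in LF/LCL and 155057 to 214538 in SF/SCL, with no overlap. All 8 genes had a fold change toward LF/LCL in limma, beside 51.4% of all genes, as had all 8 smooth muscle markers. At an unadjusted p under 0.05 in limma were 5 of the fibroblast and 1 of the smooth muscle markers, beside 4.48% of all genes in that direction. HS3ST6, HYAL1, HAS3, SULF1, SDC1 and SDC2 lay in the same direction, and the part of fibroblasts or smooth muscle in them was not tested. SDC1, the syndecan typical of epithelia, was at 2873 in cow 489215, near the LF/LCL cows. The fibroblast sum of that cow was 214538, below every LF/LCL cow. The summed general epithelial markers (6 genes) ran opposite to the fibroblast sum, at 26945 to 41321 in LF/LCL and 45032 to 64836 in SF/SCL. This was the direction of HS3ST5 and SULF2 and the opposite of that of SDC1. The part of epithelium in HS3ST5, SULF2 and SDC1 was not tested. In limma 5 of the 6 had a fold change toward SF/SCL. EPCAM, KRT8 and KRT18, 3 of the 6, did not overlap between the groups, beside 9.51% of all genes in that direction. CLDN4 had a fold change toward LF/LCL in limma, which turned in edgeR and DESeq2. The summed secretory markers (7 genes) were 13562 to 16020 in LF/LCL, 293366 in cow 856, 352940 in cow 97 and 39877 in cow 489215. Most of the signal in cows 856 and 97 was OVGP1, at 271794 and 325158. MSX1 ran the other way in these cows, at 125 and 461 against 1228 to 1721 in LF/LCL. In cow 489215 most of the sum was WFDC2, at 29355, while PAX8 and ESR1 lay below every LF/LCL cow. Of the 5 secretory genes tested, 2 had a fold change below 0 in limma. The mesothelial sum (6 genes) was 2537 to 3420 in LF/LCL, 26288 in cow 856, 26928 in cow 97 and 3528 in cow 489215. MSLN and WT1 made up most of it in cows 856 and 97, while LRRN4 and BNC1 were lower in every SF/SCL cow than in any LF/LCL cow, and BNC1, the 1 gene of the list that was tested, was higher in LF/LCL at an unadjusted p under 0.05 in limma. The sums for endothelium (7 genes) and leukocytes (8 genes) overlapped between the groups, and the erythrocyte sum (6 genes) was at most 25.3.

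**Figure D4:**
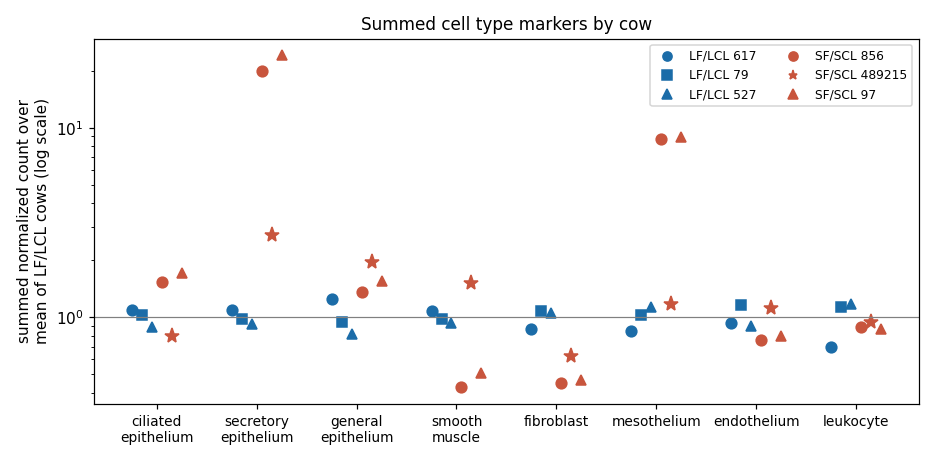
Summed normalized read counts of each list of cell type markers per cow, divided by the mean of the 3 LF/LCL cows (vertical axis, log scale), for LF/LCL (blue) and SF/SCL (red). Fibroblast sums of all SF/SCL cows lie below the LF/LCL cows, smooth muscle sums lie below for cows 856 and 97 and above for cow 489215 (star), and secretory and mesothelial sums of cows 856 and 97 lie far above all others.

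The other genes of the pathway were read from lists of the steps before and after those above. Enzymes and transporters that build the linker and supply sugar and sulfate donors held 15 tested genes, 0 of them at an unadjusted p under 0.05 in limma and 11 with a fold change below 0 (12 after TMM rescaling in limma). In B4GALT7, B3GALT6 and PAPSS2, 3 of the 15, all LF/LCL cows were above all SF/SCL cows, beside 8.6% of all genes in that direction. In the other direction there were 0 of the 15, beside 9.51% of all genes. The further chondroitin and dermatan genes held 5, all below 0 in limma, edgeR and DESeq2. At an unadjusted p under 0.05 in limma there was 1, beside 4.48% of all genes in that direction. CHPF and DSE, 2 of the 5, were higher in all LF/LCL cows, beside 8.6% of all genes. The gene at that threshold was DSE, the epimerase that turns chondroitin into dermatan, at 619.6, 803 and 681 in LF/LCL and 418, 584 and 426 in SF/SCL, with a log2 fold change of -0.57 (SE 0.23, limma adjusted p = 0.572). Without cow 489215 it passed the threshold in limma (adjusted p = 0.0216), together with CSGALNACT1 (adjusted p = 0.0194), which starts chondroitin chains.

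The lysosomal enzymes that take the chains apart held 13 tested genes, of which 8 had a fold change above 0 in limma and 9 in edgeR and DESeq2, where GALNS turned, and the 3 at an unadjusted p under 0.05 in limma were all higher in SF/SCL, beside 4.19% of all genes in that direction. IDUA, which removes iduronic acid from heparan and dermatan sulfate, was at 914, 1167 and 1054 in LF/LCL and 2159, 1305 and 2275 in SF/SCL, a log2 fold change of 0.84 (SE 0.26, limma adjusted p = 0.452). GLB1, the lysosomal beta-galactosidase, was at 1433, 1585 and 1456 and 5711, 1599 and 3529, a log2 fold change of 1.09 (SE 0.45, limma adjusted p = 0.566). SUMF1, which activates the sulfatases, was at 1973, 2144 and 2559 and 3155, 2992 and 2889, a log2 fold change of 0.44 (SE 0.17, limma adjusted p = 0.526). In these 3 of the 13 the groups did not overlap, beside 9.51% of all genes in that direction. In the other direction there were 0 of the 13, beside 8.6% of all genes. Without cow 489215 IDUA and GLB1 had adjusted p-values from limma of 0.00419 and 0.00521. Of these 3, the value of cow 489215 was nearest to the LF/LCL cows for IDUA and GLB1.

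The hyaluronan binding and turnover list held 7 tested genes of 15 rows, and 0 reached an unadjusted p under 0.05. KIAA1199, which codes for a protein that takes hyaluronan apart outside the lysosome, was not tested because its SD exceeded its mean, and it is named after its values were seen. It was at 484, 318 and 426 in LF/LCL and at 4757, 65.2 and 5046 in SF/SCL. Cows 856 and 97 were far above every other cow and cow 489215 was the lowest, the order also seen for HPSE. With all cows, 0 genes of the 4 lists had an adjusted p under 0.05 in limma, edgeR or DESeq2.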

How the data were processed

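Isthmus RNA of 6 cows, 3 per group, was sequenced by the authors from polyadenylated libraries as paired ends. Per the labels and the study's methods, TopHat2 2.0.8 with Bowtie2 2.1.0 aligned the quality-filtered reads to a masked UMD 3.1 assembly of cattle, and the alignments were processed with SAMtools 0.1.18, counted per Ensembl gene with HTSeq 0.5.4p2 and divided by the size factor of DESeq 1.12.1. The use of strand in counting was not given in the sources used here. The deposited signal values are these normalized counts for 24616 genes, of which 5476 were at 0 in all libraries. The values of each library were whole multiples of a single step: 100% of the 147696 values gave whole reads within 0.1 read. Size factors ran from 0.751 to 1.32.

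A limma 3.58.1 model (R 4.3.3, trended and robust empirical Bayes) was fitted to log2(value + 1) of the 15387 genes whose mean exceeded 5 and their SD. Adjustment was by Benjamini-Hochberg over all of them, with a threshold of 0.05. On the recovered reads, edgeR 4.0.16 (quasi-likelihood test, TMM) called 0 genes and DESeq2 1.42.0 called 416. Other alternatives were DESeq2 size factors in edgeR, TMM rescaling, pseudocounts of 0.5 and 5, other filters and leaving out each cow. Limma with all cows, edgeR with TMM and DESeq2 were tried on simulated counts, and the other alternatives were not. P-values weigh the difference between the groups against the spread between these cows, which were chosen as extremes. Intervals and limits from counts cover counting error only.

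The genes, roles, further lists and tests were chosen with earlier results of these data known, and no list was tested as a set. Genes described in detail were HPSE, HYAL1 and HS3ST5, those at an unadjusted p under 0.05, and those at a mean of 5 or less. Also described were those above 0.5 in log2 fold change whose sign turned without cow 489215. The gene of each role with the most normalized reads was added (a choice of what to describe, which favours long transcripts and is no comparison of levels). From these same libraries, with the negative binomial test of DESeq, the study reported genes that differed in the isthmus. Its enriched terms list HYAL1 among those higher in LF/LCL and HS3ST5 among those higher in SF/SCL. With all cows limma called neither gene here at an adjusted p under 0.05, and the tests differ. The study discusses HPSE from qPCR of more cows. The values of the remaining genes are given so that each is accounted for, and those singled out among them were chosen after their values were seen. Symbols were taken from the row names, and neighbouring genes were read from a RefSeq annotation of the assembly NIAB-ARS_B.indTharparkar_mat_pri_1.0, in which 46 of the 50 symbols had an entry. Positions and sequences were not analysed here. The plots were drawn with matplotlib 3.10.9 under Python 3.11.15 (pandas 2.3.3, numpy 2.4.6).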

Additional observations from a re-analysis of the deposited data

How the results depend on the processing

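Cow 489215 decided most calls. Without it, limma gave 2827 genes at an adjusted p under 0.05 over all genes, 17 among the glycosaminoglycan genes and 4 among the other genes of the pathway, against 0 of each with all cows. Leaving out each cow in turn gave 0 to 2827, 0 to 17 and 0 to 4 for these counts, with 0 each time that another cow was left out. The edgeR test without cow 489215, chosen after seeing the data, gave 2805, 16 and 4. DESeq2 with all cows called 416 genes, 3 of them glycosaminoglycan genes. The 7 glycosaminoglycan genes at an unadjusted p under 0.05 in limma (beside 8.66% of all genes) became 3 to 24 when a cow was left out. There were 3 after the loss of any 1 LF/LCL cow and 24 without cow 489215, and 23 in edgeR without cow 489215. The share of all genes at that threshold was not counted in the fits that left out a cow. These counts are therefore not read as a result about the glycosaminoglycan genes. Without cow 489215, 18.2% of all genes passed even an adjusted p under 0.05 in limma. The 11 genes whose groups did not overlap (beside 18.1% of all genes) became 12 to 27, with 18 without cow 617 and 27 without cow 489215. Of these 27, 19 were higher in LF/LCL (beside 24.9% of all genes) and 8 in SF/SCL (beside 27.1%). With a cow left out, the groups of any gene can only overlap less. The share of all genes was not counted for the other cows left out. The log2 fold change of CD44 ran from -1.05 to 0.13 over the fits that left out a cow, and was above 0 without cow 856. That of HS3ST3B1 ran from -0.83 to 0.030, and was above 0 without cow 489215 in limma and, at 0.023, in edgeR. The cause of these changes was not tested. Pseudocounts, filters and other normalizations with limma or edgeR kept 0 calls over all genes, the glycosaminoglycan genes and the other pathway genes. No paired analysis was possible because the groups share no cow. With 3 cows per group and low counts in HS6ST3, HYAL4 and NDST4, differences in those genes were not detectable at this depth.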
